A study of Mus musculus with 12 samples.

Results

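The cytosolic ribosomal protein genes were followed across 12 mouse kidneys. Members were chosen by gene symbol alone: Rpl or Rps followed by a number, with an optional a or x, plus Rplp0, Rplp1, Rplp2 and Rpsa. This rule found 76 of the 13124 genes in the deposited table, 46 of the large (60S) and 30 of the small (40S) ribosomal subunit. The rule itself uses no measured value, but it was set with earlier results of these data known.

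A cytosolic ribosome carries its proteins in fixed proportions, so cells make them in matched amounts, and their mRNAs are among the most abundant in any tissue. Most of these mRNAs begin with a run of C and T at the 5′ end, the terminal oligopyrimidine (TOP) tract. Through this tract, mTOR kinase, with the RNA-binding protein Larp1, sets how much of the mRNA is translated, and Myc is known to raise transcription of the genes. Ribosomal protein mRNAs are also used as reference genes in quantitative PCR.

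All mice were male C57BL/6, and their age is not stated in the sources used here. Sham kidneys (1 to 3) came from mice that had sham surgery and no antibody. The other 9 kidneys came from mice labelled as having ischaemia-reperfusion injury (IRI), where blood flow to the organ is blocked for a time and then let back in, after a monoclonal antibody given 24 h earlier: an isotype control (kidneys 4 to 6), the antibody VR81 against G-CSFR, the receptor of granulocyte colony-stimulating factor (kidneys 7 to 9), or the antibody BB5.1 against complement C5 (kidneys 10 to 12). Each group held 3 mice, and RNA of the whole perfused kidney was taken 24 h after surgery. The injury is described as unilateral, and whether the operated kidney was always the one sequenced is not stated in the sources used here. In whole kidney, more cells of a type and more RNA per cell cannot be told apart.

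Libraries held 13200930 to 16324215 counts. The sham and isotype groups were far apart in 5 markers of tubule injury (Havcr1, Lcn2, Krt20, Clu and Spp1), whose summed level was 1346 to 2273 CPM in sham and 33272 to 37831 CPM in isotype kidneys. CPM is counts scaled to a common library size, here with TMM factors. Under the antibodies the groups were not uniform: kidneys 9 and 11 reached 11949 and 14242 CPM, while kidneys 7, 8, 10 and 12 held 1556 to 1942 CPM, close to sham. Counts of members or their median in each comparison of these groups are therefore also given without kidneys 9 and 11. Within the family itself 2 other libraries stood at the ends: kidney 4 had the highest CPM of the 12 for 74 members, and kidney 1 the lowest for 75.

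The start of the mRNA is shown first because it carries the feature by which these genes are known. RefSeq promoter entries (GRCm38.p6) matched 56 of the 76 members, with 66 start sites in all. The windows of 30 bases, 10 before the start and 20 from it, are printed 5′ to 3′ on the sense strand for the 4 matched members with the largest and the 4 with the smallest change in isotype against sham kidneys, with capitals marking a C followed by at least 4 bases that are C or T. The first 4 are those with the largest change.
Rpl12, chr2:32961702-32961731, plus strand: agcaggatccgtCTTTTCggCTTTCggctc
Rps12, chr10:23787190-23787219, minus strand: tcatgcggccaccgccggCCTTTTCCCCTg
Rpsa, chr9:120127756-120127785, plus strand: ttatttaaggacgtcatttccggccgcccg
Rps15a, chr7:118116128-118116157, minus strand: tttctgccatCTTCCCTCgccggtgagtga
Rpl22, chr4:152325716-152325745, plus strand: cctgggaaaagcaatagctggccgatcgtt
Rpl7a, chr2:26910797-26910826, plus strand: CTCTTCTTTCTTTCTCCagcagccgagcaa
Rps15, chr10:80292421-80292450, plus strand: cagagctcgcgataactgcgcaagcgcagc
Rpl35a, chr16:33056472-33056501, plus strand: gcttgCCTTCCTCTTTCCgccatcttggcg
Rpl22 and Rpl35a have further annotated starts that are not printed. Of these, the other start of Rpl22 holds a tract and the others of Rpl35a hold none.

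Such a tract lay in 40 of the 66 windows, 60.6%, against 35.8% of all 32851 start windows in the table. Among the printed windows Rpl7a and Rpl35a, at the low end, hold the longest tracts, and the printed windows of Rpsa, Rpl22 and Rps15 hold none. The 37 members with a tract in any window had a median log2 change of 0.71 in isotype against sham, and the 19 without had 0.63. The ranges overlapped, at 0.16 to 1.31 with a tract and 0.31 to 0.94 without. Such a run can lie before the annotated start, so it need not open the mRNA. Starts used in these kidneys were not measured. A stricter definition, a C followed by at least 6 pyrimidines in the 40 bases around the start, held for 33 of the 66 member windows and 6154 of the 32851. In the whole 300 bases, 250 before the start and 50 from it, CGGAAG, the core recognised by ETS-family factors, was found on either strand in 62.1% of member windows and 16.9% of all. AAGATGGC, a motif of the factor YY1, was found on either strand in 10.6% and 2.75%, and the TATA box TATAAA, searched on the sense strand, in 7.58% and 8.32%. A match is a run of letters, and binding was not measured.

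Levels per length are CPM per kb of the annotated transcript. By this scale, as the mean over all 12 kidneys, the highest members were Rplp1 at 944 and Rps12 at 830, followed by Rpl41 at 784 and Rps25 at 762. Rplp1 encodes an acidic protein of the stalk that recruits translation factors to the large subunit, Rpl41 the smallest ribosomal protein, and Rps12 and Rps25 proteins of the small subunit. The lowest were Rps20 at 62.9 and Rps15a at 57.4, for which the annotated transcripts are long, at 3706 and 5130 bp. The level per kb of these 2 members thus depends on the transcript model. Many members have processed pseudogenes, 297 named ones for 59 members in the annotation. How reads that match several copies were treated is not given in the sources used here, so single levels are uncertain where copies share sequence. The table holds 7 rows with pseudogene symbols of member genes, 1 of them (Rpl9-ps6) annotated as protein-coding, with means over the 12 kidneys of 1.71 to 3.29 CPM.

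Together the members took 1.79% ± 0.179 of all counts in sham kidneys (SD, n = 3), 3.33% ± 0.743 in isotype kidneys, 2.62% ± 0.152 under anti-G-CSFR and 2.65% ± 0.446 with anti-C5. The shares in the single sham kidneys 1 to 3 were 1.60%, 1.95% and 1.83%, and those in the isotype kidneys 4 to 6 were 4.18%, 2.81% and 3.00%. Under anti-G-CSFR, kidneys 7 to 9 held 2.45%, 2.75% and 2.66%. Under anti-C5, kidneys 10 to 12 held 2.15%, 3.01% and 2.80%. Every IRI-labelled kidney lay above every sham kidney, whichever antibody was given. The antibody groups overlapped each other and, at 3.01% in kidney 11, the isotype group. The ratio of large-subunit to small-subunit counts stayed between 1.43 and 1.57 over the 12 kidneys.

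**Figure D1:**
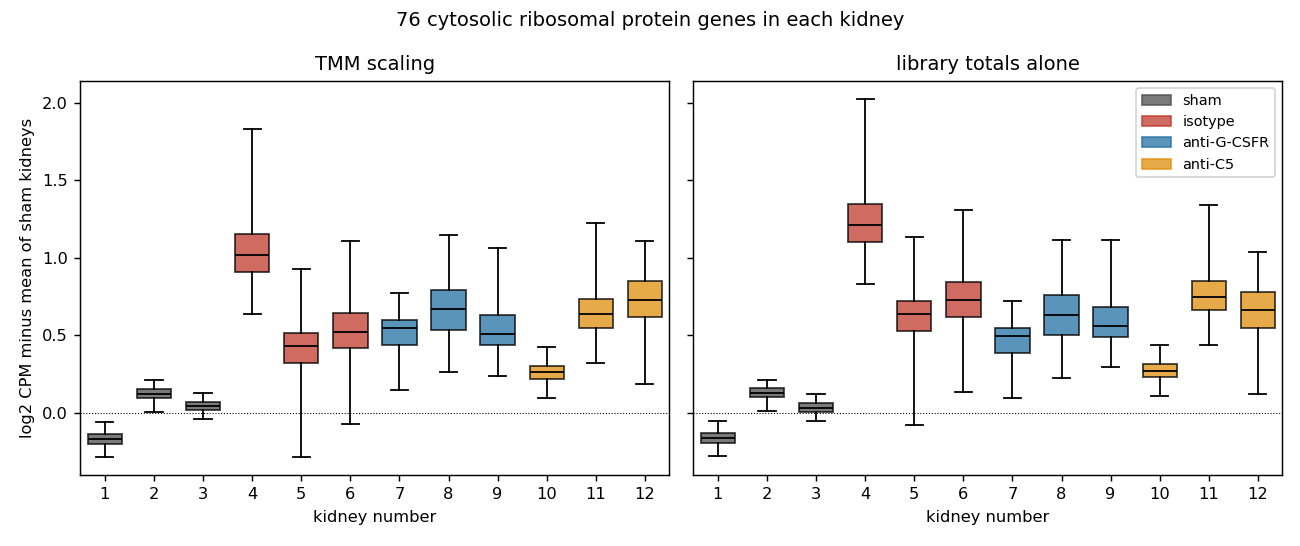
Distribution over the 76 members, in each of the 12 kidneys, of the log2 CPM minus the mean log2 CPM of the 3 sham kidneys, with TMM scaling on the left and library totals alone on the right. Boxes show the quartiles and median, whiskers the lowest and highest member, and colours the 4 groups; kidney 4 is the highest on both scales, with a median of 1.02 on the left.

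On the log2 scale, the median member stood 1.02, 0.43 and 0.52 above the sham mean in isotype kidneys 4, 5 and 6. It stood 0.55, 0.67 and 0.51 above it in kidneys 7, 8 and 9 under anti-G-CSFR, and 0.26, 0.64 and 0.73 in kidneys 10, 11 and 12 under anti-C5. Within sham, the medians of kidneys 1, 2 and 3 were -0.17, 0.12 and 0.04. Kidney 4 therefore stood apart within its own group by more than the other isotype kidneys stood from those under either antibody. By library totals alone the isotype kidneys had 1.21, 0.64 and 0.73.

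Isotype against sham asks what injury with a control antibody did to these genes. Of the 76 members, 71 rose and 0 fell, with BH-adjusted p under 0.05 over all genes (edgeR's quasi-likelihood test on all 12 libraries). Of all 13124 genes, 32.1% were called higher and 30.7% lower. The other 5 members, which did not pass the test, also had positive estimates. The median log2 change was 0.66, a fold of 1.58, and the median over all genes was 0.03. In size this was moderate for this comparison, with 18.4% of all genes above the members' median and 2 members among the 10% of genes with the highest change. The median was 0.63 for the 46 large-subunit and 0.70 for the 30 small-subunit genes. For 73 members all 3 isotype kidneys lay above all 3 sham kidneys, against 35.5% of all genes.

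The size rested in part on kidneys 4 and 1. Without kidney 4, 60 members were called higher and the median was 0.48, with 32.8% of all genes called higher. Without kidney 1, 59 members and 28.7% of all genes were. With both left out, 33 members and 30.4% of all genes were called higher, and the median was 0.39. By library totals alone 75 were called higher, with a median of 0.86, where 42.6% of all genes were called higher and the median of all genes moved to 0.227. Of 10 leukocyte markers, 5 were called higher in isotype against sham (Coro1a, Cd53, Arhgdib, Rac2 and Tyrobp) and 0 lower. The summed level of the 10 was 122 to 146 CPM in sham and 160 to 237 CPM in isotype kidneys, with none at 0. Ptprc, which defines leukocytes, had 0.07 (edgeR adjusted p = 0.761). All 6 neutrophil markers rose, with a median log2 change of 3.12, and all 10 proximal tubule markers fell, with a median of -2.37. The part of these cell types in the result was not tested.

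**Figure D2:**
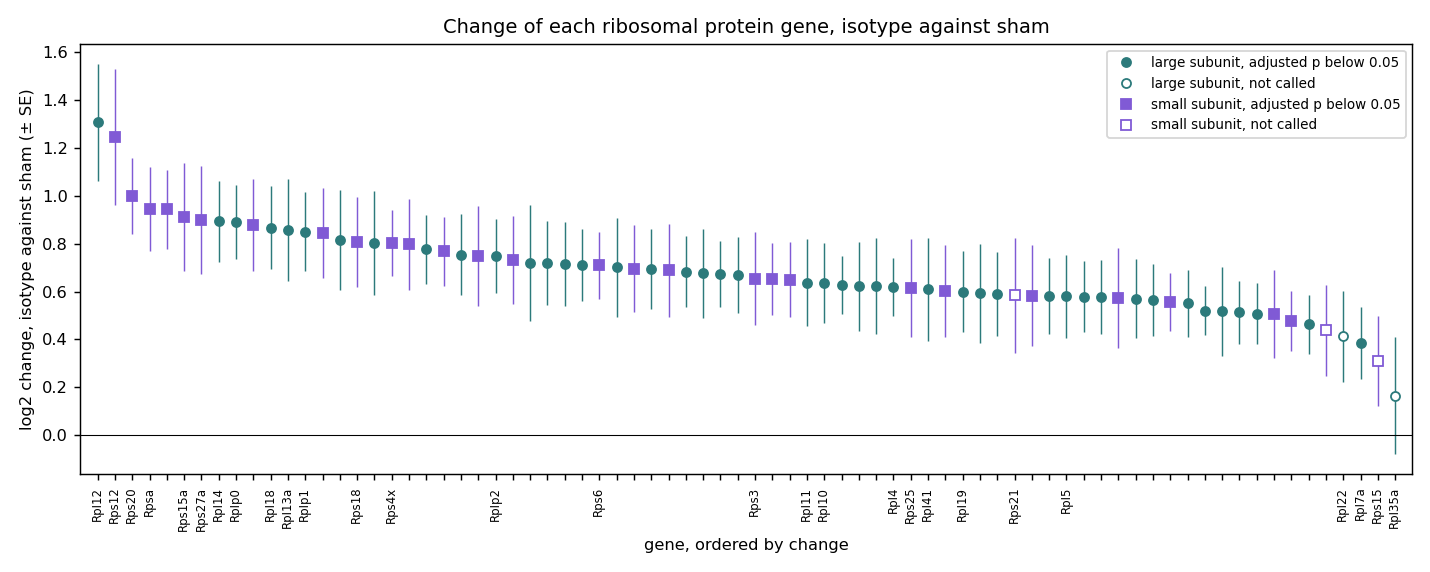
Log2 change of each of the 76 members in isotype against sham (vertical axis, edgeR, TMM scaling, bars: SE), ordered from Rpl12 at 1.31 to Rpl35a at 0.16. Circles are large-subunit and squares small-subunit genes, the 5 open symbols are the members that did not pass the test, and names are given for the members described by the naming rule.

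Among the stalk genes, Rplp0, which anchors the stalk to the large subunit, had 584, 724 and 671 CPM in sham kidneys and 1445, 1092 and 1129 CPM in isotype kidneys. Its groups did not overlap, and it rose by 0.89 ± 0.155 on the log2 scale (SE, edgeR adjusted p = 0.000426). Its partners rose alike, Rplp1 by 0.85 and Rplp2 by 0.75. In the 5S particle, which is part of the large subunit and can also bind the p53 regulator Mdm2, Rpl5 rose by 0.58 and Rpl11 by 0.64. Rpl5 narrowly missed the threshold without kidney 1 (0.50, edgeR adjusted p = 0.0513). It lost the call in 2 of 24 alternatives, over which its change went down to 0.32. Mdm2 itself rose by 0.67 (edgeR adjusted p = 7.7e-05).

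Rpl12, which lies at the base of the stalk (Entrez 269261, GRCm38 chr2:32961559-32965345), had the largest change of all members. Its level was 187, 243 and 223 CPM in sham kidneys, 737, 412 and 466 CPM in isotype kidneys, 349, 377 and 399 CPM under anti-G-CSFR, and 266, 496 and 413 CPM under anti-C5. Every isotype kidney was above every sham kidney, and kidney 4 was far above the other 2. It rose by 1.31 ± 0.245 (edgeR adjusted p = 0.000687), and by 1.01 without kidney 4.

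Rps12, a small-subunit protein (Entrez 20042, GRCm38 chr10:23785183-23787275), came next in change. It had 184, 258 and 234 CPM in sham, 795, 376 and 433 CPM in isotype, 374, 495 and 466 CPM under anti-G-CSFR, and 300, 523 and 481 CPM under anti-C5. Kidney 4 was again the highest, and all IRI-labelled kidneys exceeded all sham kidneys. Its rise was 1.25 ± 0.284 (edgeR adjusted p = 0.0024), and 0.84 without kidney 4. Of the other small-subunit members, Rps20 rose by 1.00, Rpsa, which is also known as a laminin receptor, by 0.94, Rps27a, which is made as a fusion with ubiquitin, by 0.90, and Rps3, which lies at the mRNA entry, by 0.65.

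Rps6 is the ribosomal protein phosphorylated by the S6 kinases. It had 184, 221 and 200 CPM in sham, 396, 289 and 305 CPM in isotype, 280, 292 and 276 CPM under anti-G-CSFR, and 237, 297 and 305 CPM under anti-C5. Its groups did not overlap between isotype and sham, and it rose by 0.71 ± 0.141 (edgeR adjusted p = 0.00104). Its change was close to the median of the family.

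Among the 5 members that did not pass the test were Rps21, Rpl22, Rps15 and Rpl35a. Rpl35a, a large-subunit protein (Entrez 57808, GRCm38 chr16:33056453-33060189), had the smallest change. It had 128, 168 and 156 CPM in sham, 241, 123 and 143 CPM in isotype, 241, 260 and 203 CPM under anti-G-CSFR, and 176, 203 and 290 CPM under anti-C5. Sham and isotype overlapped, while all 6 antibody-treated kidneys lay above sham. Its change in isotype against sham was 0.16 ± 0.245 (edgeR adjusted p = 0.575), and it turned to -0.18 without kidney 4. Rps15, of the small subunit, had 263, 317 and 294 CPM in sham and 480, 301 and 302 CPM in isotype kidneys, and its groups overlapped too. Its change was 0.31 ± 0.187 (edgeR adjusted p = 0.167), with 0.05 without kidney 4 and -0.02 without kidneys 1 and 4. Rpl7a passed narrowly (0.38, edgeR adjusted p = 0.0431). It was no longer called without kidney 4 (0.23, edgeR adjusted p = 0.172), nor in several other fits.

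**Figure D3:**
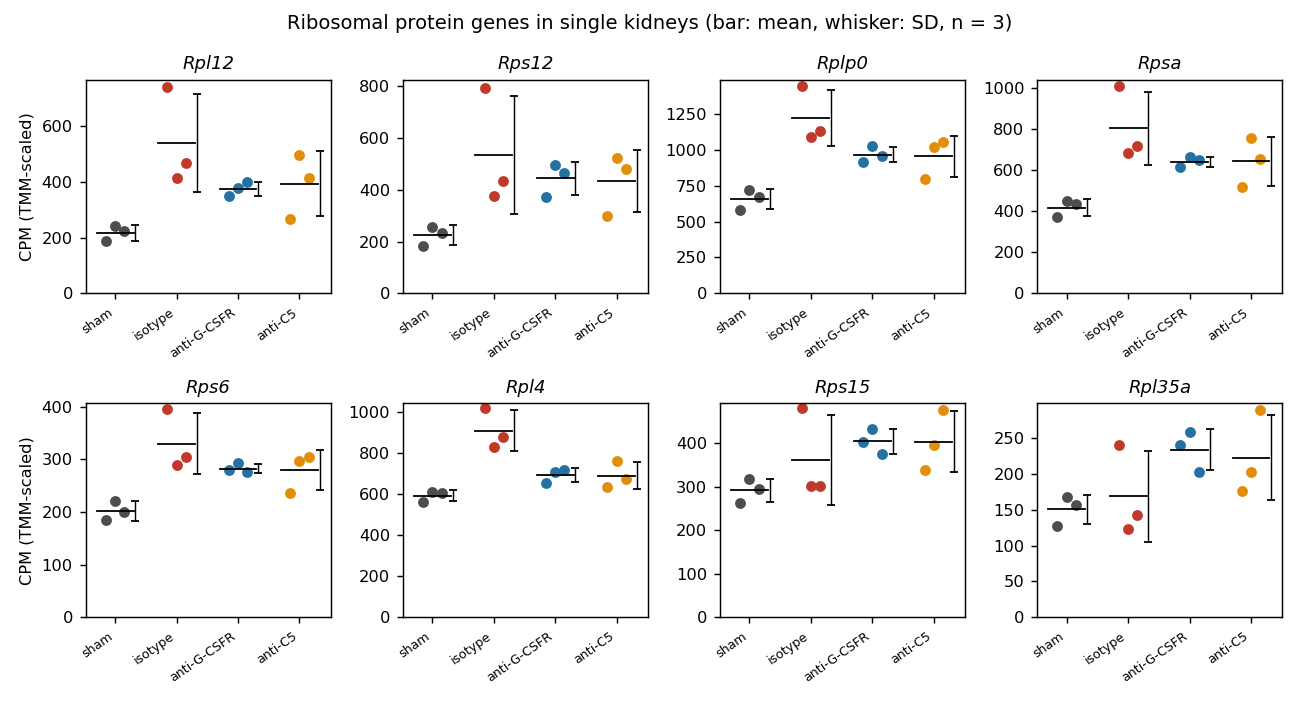
CPM with TMM scaling in each of the 12 kidneys for 8 members; points are kidneys, bars group means and whiskers SD (n = 3 per group), and each axis starts at 0. Rpl12, Rps12, Rplp0, Rpsa, Rps6 and Rpl4 were higher in every isotype than in every sham kidney; Rps15 and Rpl35a overlapped.

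To see which members moved apart from the rest, the same test was run with the members' summed counts as library size. Here 2 members were higher and 1 lower than the family in isotype against sham, where 6.74% and 54.5% of all genes were called higher and lower. Rpl12 stood 0.60 ± 0.195 above the family (edgeR adjusted p = 0.0121) and Rps12 0.52 ± 0.204 above it (edgeR adjusted p = 0.0328). Rpl35a stood -0.55 ± 0.192 from it (edgeR adjusted p = 0.0176). Rps15, with -0.39, did not pass (edgeR adjusted p = 0.0636). Against isotype, Rpl35a was the 1 member called, higher than the family under anti-G-CSFR by 0.64 (edgeR adjusted p = 0.0112) and under anti-C5 by 0.57 (edgeR adjusted p = 0.0224). These comparisons share the isotype kidneys with the first. Called higher among all genes there were 27.7% and 27.9%. With isotype kidney 5 or kidney 6 left out, 0 members were called higher than the family under either antibody, and likewise 0 under anti-C5 without kidney 12. Without kidney 4 it was 2 under each. Leaving out single kidneys moved the number called above the family in isotype against sham between 1 and 2 and the number below between 0 and 2.

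Anti-G-CSFR and anti-C5 against isotype compare IRI-labelled kidneys given each antibody with those given the control antibody. By the summed level of the injury markers, though not by every single marker, kidneys 7, 8, 10 and 12 were within the range of sham. Under anti-G-CSFR 0 members were called higher and 4 lower (edgeR), among them Rpl4, Rps4x and Rpl18, with 32.0% of all genes called lower and 31.5% higher. Under anti-C5 0 were higher and 5 lower (edgeR), among them Rpl4, Rps4x, Rpl23 and Rps20, with 29.8% of all genes called lower and 30.5% higher. The median log2 change was -0.14 under both, and the medians over all genes were -0.02 and -0.01. At an unadjusted p under 0.05, 8 members were lower under anti-G-CSFR and 6 in anti-C5 kidneys, and none was higher. Of all genes, 67.2% and 64.6% had such a p in either direction. DESeq2 called 6 lower under each and none higher, where it called 4169 and 3917 of 13108 genes lower.

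Markers of other cell types differed as well: all 10 proximal tubule markers were higher under each antibody than in isotype kidneys, with medians of 2.23 and 2.07. Of 6 neutrophil markers, 6 were lower under anti-G-CSFR and 2 in anti-C5 kidneys, with medians of -5.31 and -1.04. Of 10 leukocyte markers, 5 and 1 were lower, with medians of -0.59 and -0.20. The anti-C5 kidneys were not alike in these markers. Summed neutrophil markers reached 108.6 CPM in kidney 11, above every isotype kidney, the highest of which (kidney 6) held 105.1 CPM. Kidneys 10 and 12 held 7.19 and 12.9 CPM, near sham, where the highest (kidney 1) held 9.72 CPM. The summed leukocyte level of kidney 11, 252 CPM, was the highest of the 12 kidneys. The part of these cell types in the members' values was not tested.

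The call depended on kidney 4 and on scaling. Without kidney 4, 8 members were higher and 1 lower under anti-G-CSFR (median 0.09), and 7 were higher and 1 lower under anti-C5 (median 0.07). Of all genes, 33.4% and 32.8% were then called higher. By library totals alone, 27 were lower under anti-G-CSFR and 23 in anti-C5 kidneys. There 42.3% and 38.9% of all genes were called lower, and the members had medians of -0.35 and -0.32. Without kidneys 9 and 11, 1 member was lower under anti-G-CSFR and 6 with anti-C5, where 4104 and 4009 of 13124 genes were lower. Without anti-G-CSFR kidney 7, 0 members were lower under anti-G-CSFR, and without isotype kidney 5, 9 were. Of all genes, 3600 and 3679 were lower in these fits. Rpl18 under anti-G-CSFR (edgeR adjusted p = 0.0437) lost its call in 11 of 24 alternatives, with an edgeR adjusted p of 0.209 without kidney 4. Rps20 under anti-C5 (edgeR adjusted p = 0.0488) lost it in 14 of 24, with edgeR adjusted p of 0.183 without kidney 4 and 0.182 without kidney 10.

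Rpl4, a large-subunit protein at the exit tunnel, was lower under both antibodies. It had 562, 609 and 606 CPM in sham, 1019, 828 and 880 CPM in isotype, 656, 710 and 716 CPM under anti-G-CSFR, and 634, 763 and 673 CPM under anti-C5. All isotype kidneys lay above all other kidneys. It fell by 0.39 on the log2 scale under anti-G-CSFR (edgeR adjusted p = 0.014) and by 0.40 under anti-C5 (edgeR adjusted p = 0.0135). Without kidney 4 these were -0.30 and -0.31; without kidney 7 the first no longer passed (edgeR adjusted p = 0.0549). Rps4x, an X-linked small-subunit gene, had 765, 628 and 658 CPM in isotype, 501, 558 and 548 CPM under anti-G-CSFR, and 441, 571 and 549 CPM under anti-C5. It too was below all isotype kidneys in every antibody-treated kidney, with changes of -0.35 and -0.39 (edgeR adjusted p = 0.0411 and 0.0268), and under anti-C5 it lost the call without kidney 4 or without kidney 10. Rpl12, with -0.52 and -0.46, did not pass (edgeR adjusted p = 0.0775 and 0.119).

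Under the antibodies the members stayed above sham in nearly every kidney. For 76 members all 3 anti-G-CSFR kidneys exceeded all 3 sham kidneys, against 9.47% of all genes, and for 75 members all 3 anti-C5 kidneys did, against 9.36%. The exception was Rpl10 under anti-C5, with 351 CPM in kidney 10 and 352 CPM in sham kidney 2. The median log2 change was 0.57 under anti-G-CSFR and 0.56 with anti-C5, with medians over all genes of -0.01 and 0.01. Of all genes, 2.67% and 5.12% lay above those medians, and 72 and 69 members were among the 10% of genes with the highest change. The comparisons share the sham kidneys with each other and with isotype against sham. Members also varied together over the kidneys, with a median Pearson r of 0.974 to the mean of the other members. Counts of members in every comparison, above and below, are therefore not separate observations, and rest on 3 kidneys in each group.

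No single member was called in these comparisons by edgeR with BH adjustment, and the same was true of all genes (0% called). At an unadjusted p under 0.05, 75 of 76 members were higher under each antibody, against 5.93% of all genes in either direction under anti-G-CSFR and 11.3% with anti-C5. Without kidneys 9 and 11 it was 74 and 67 members. The smallest adjusted p among members was 0.80 under anti-G-CSFR and 0.371 with anti-C5. Limma-voom called 0 in each. DESeq2 called 0 under anti-G-CSFR. Under anti-C5 it called 49 higher, of the 73 members that it tested after its own filter had left 1417 genes, of which 4.94% were called higher. With only the 6 libraries compared, edgeR called 21 members higher under anti-G-CSFR, among 41 genes, or 0.314%, higher in all, and 0 under anti-C5. Sham kidney 1 bore on the count: without it, 55 and 54 members had an unadjusted p under 0.05, and the medians were 0.49 and 0.47. Without kidneys 9 and 11 the medians were 0.60 and 0.52.

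Members have short mRNAs, and other short genes were compared for this reason. The members' transcripts had a median of 767.5 bp and all genes 2822 bp. The 910 other genes under 1000 bp had a median log2 change of 0.26 under anti-G-CSFR and 0.27 with anti-C5 against sham, above the median of all genes and below that of the members. Against isotype the same genes had 0.47 and 0.44, where the members had -0.14, and in isotype against sham they had -0.19, where the members had 0.66. The part of length in the members' difference was not tested.

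Between the antibodies, no member was called in anti-C5 against anti-G-CSFR by edgeR, DESeq2 or limma-voom, and 0 members had an unadjusted p under 0.05. Of all genes, 0% were called by edgeR. The members' changes ran from -0.09 to 0.11 with a median of -0.01, and the median SE was 0.174. With kidneys 9 and 11 left out the median was -0.08.

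**Figure D4:**
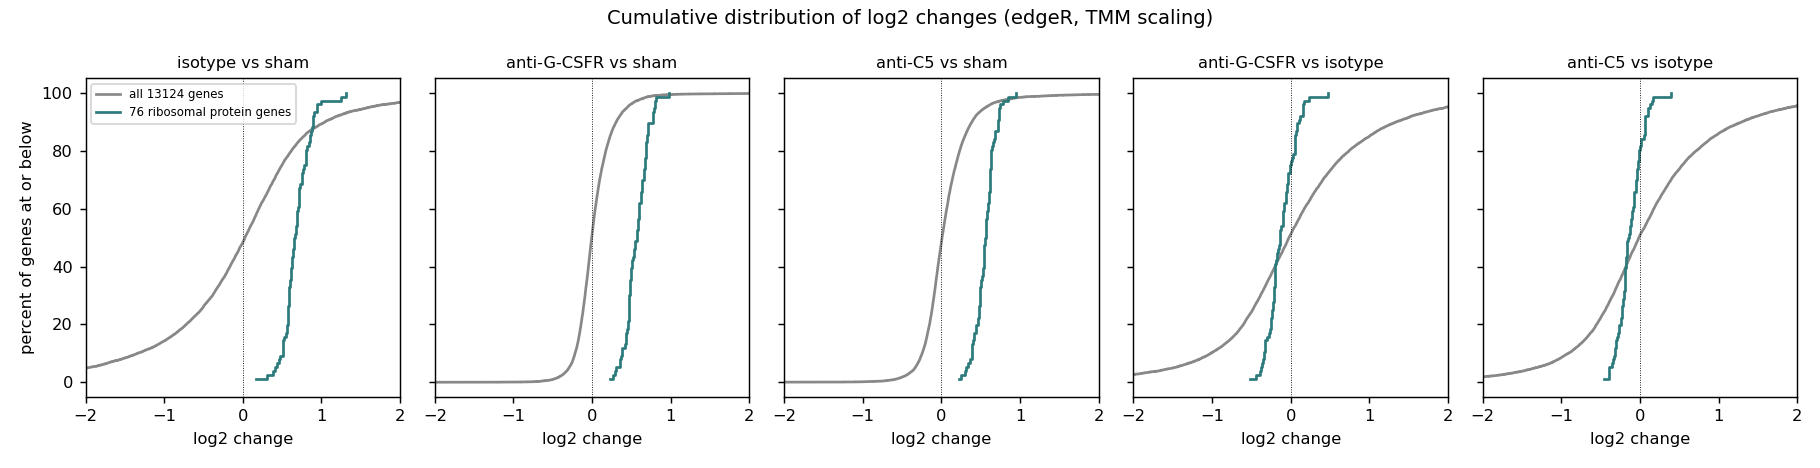
Cumulative distributions of log2 change (edgeR, TMM scaling) for all 13124 genes (grey) and the 76 members (green) in 5 comparisons; the vertical axis is the percent of genes at or below a change, and the horizontal axis is limited to -2 to 2. Against sham the members lie to the right under the isotype and both antibodies, with medians of 0.66, 0.57 and 0.56, and the curve of all genes is narrower under the antibodies.

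Of 21 other genes whose mRNAs carry a TOP tract or act in elongation, 14 rose and 0 fell in isotype against sham, with a median of 0.49, where 32.1% of all genes rose and 30.7% fell. Under anti-G-CSFR against isotype 9 fell and 1 rose, and under anti-C5 7 fell and 0 rose, where 32.0% and 29.8% of all genes fell. The 7 of 21 lie close to that share. Eef1b2, a subunit of the exchange factor of elongation, had 189, 236 and 212 CPM in sham, 415, 294 and 328 CPM in isotype, 317, 347 and 308 CPM under anti-G-CSFR, and 257, 319 and 345 CPM under anti-C5. It followed the members and lay above sham in all 9 other kidneys. Pabpc1, the poly(A)-binding protein, had 289, 288 and 277 CPM in sham, 572, 620 and 647 CPM in isotype, 257, 262 and 322 CPM under anti-G-CSFR, and 279, 373 and 246 CPM under anti-C5. Its level rose in isotype by 1.11 and under the antibodies overlapped sham.

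Npm1, a nucleolar chaperone of ribosome assembly, rose by 1.37 in isotype against sham and fell by 1.07 under anti-G-CSFR and by 0.91 under anti-C5 against isotype (edgeR adjusted p = 4e-05, 0.00022 and 0.00073). Hnrnpa1, an RNA-binding protein, rose by 1.33 and fell by 1.08 and 0.86, and Nap1l1, a histone chaperone, rose by 0.97 and fell by 0.88 and 0.71. In all 3 the fall under antibody passed the test, which it did for at most 5 members. Eef2, the translocation factor, had 0.03 in isotype against sham and was not called.

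Of 12 regulators of the family, 5 rose and 1 fell in isotype against sham, against 32.1% and 30.7% of all genes. Myc had 7.24, 5.51 and 7.88 CPM in sham, 77.4, 84.2 and 82.5 CPM in isotype, 5.68, 5.74 and 14.2 CPM under anti-G-CSFR, and 5.78, 24.2 and 7.04 CPM under anti-C5. The isotype kidneys were nearly equal, without the excess of kidney 4 seen in the members, and the 2 raised values under antibody were kidneys 9 and 11. Eif4ebp1, a repressor of cap-dependent translation that mTOR inactivates, rose by 3.30 in isotype and fell by 2.96 and 2.31 under the antibodies. Mtor itself fell by 0.62, and Larp1 rose by 0.37 (edgeR adjusted p = 0.0041 and 0.031). The part of Myc and the other regulators in the members' values was not tested.

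**Figure D5:**
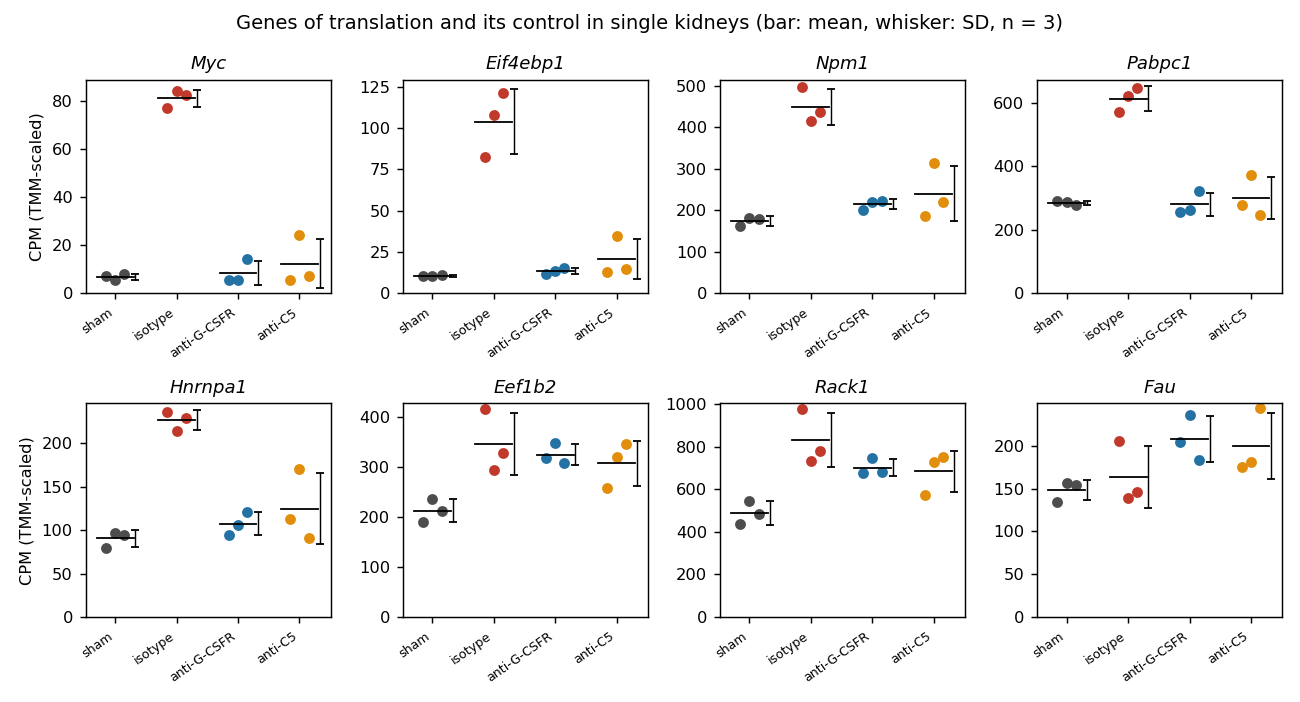
CPM with TMM scaling in each of the 12 kidneys for 8 genes of translation and its control; points are kidneys, bars group means and whiskers SD (n = 3 per group), and each axis starts at 0. Myc, Eif4ebp1, Npm1, Pabpc1 and Hnrnpa1 were higher in every isotype kidney than in any other kidney, while Eef1b2 and Rack1 were above sham in all 9 other kidneys.

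Of ribosomal proteins outside the symbol rule, 9 of 10 listed genes were in the table. Rack1, the scaffold on the small subunit, rose by 0.77 in isotype against sham, Rps3a1 by 0.62, Rpl22l1 by 0.67 and Rpl36al by 0.41. Fau, which encodes a small-subunit protein fused to a ubiquitin-like protein, was not called there, with 0.14. Rpl3l, the paralogue of Rpl3 known from muscle, was low, with 2.08, 4.41 and 3.84 CPM in sham and 1.66 to 1.78 CPM in isotype kidneys, and fell by 1.00.

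Assembly factors and partners of ribosomal proteins gave 5 of 8 genes higher and 1 lower in isotype against sham, where 32.1% of all genes were higher and 30.7% lower. Grwd1, a chaperone of Rpl3, rose by 1.55, Ltv1, which acts on the small subunit, by 0.98, and Rrs1, of the 5S particle, by 0.44, and each fell under both antibodies against isotype. Of 15 genes used as references in quantitative PCR, 7 rose and 4 fell in the same comparison. The 4 members among them all rose: Rpl13a rose by 0.86, Rps18 by 0.81, Rplp0 by 0.89 and Rpl19 by 0.60. Tbp had 0.22 and Ppia 0.33, which did not pass (edgeR adjusted p = 0.081 and 0.057), while Actb rose by 1.52, Gapdh fell by 0.35 and Sdha fell by 1.31.

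The members varied together over the 12 kidneys. Each member's log2 CPM was correlated with the mean of the other members: the median Pearson r was 0.974, and 71 of 76 exceeded 0.9. The lowest were Rpl35a at 0.694, Rpl4 at 0.783 and Rps15 at 0.868. The genes outside the rule most like the mean of the members, over the same 12 kidneys, were Eef1b2 (r = 0.987), Bola2 (0.983), Rps3a1 (0.981), Eif3i (0.977) and Dph3 (0.972). These are descriptions over kidneys that share group, library and scaling.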

How the data were processed

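The authors deposited raw read counts for 13124 genes in 12 strand-specific libraries (reads of 100 bp, single-end, all in lane 8). Reads were aligned with TopHat2 2.1.0 and Bowtie2 2.2.5 to GRCm38.p4 and counted with featureCounts, per the submitters' processing notes. Levels here are CPM with TMM factors. Tests used edgeR 4.0.16 in R 4.3.3 (robust quasi-likelihood fit of all 12 libraries, 8 residual degrees of freedom, common biological coefficient of variation 16.42%), with BH adjustment over all genes. All genes passed the filter on low counts. Scaled by library totals alone, the third-highest CPM of every gene was at least 2.01. The 50 genes without a symbol held 0.0811% of counts. Kidneys within a group differed beyond counting noise (chi-square per degree of freedom 5.48 to 65.3). The test was tried on simulated data first.

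Members, lists and the naming rule were chosen with earlier results of these data known. The naming rule took the 4 members with the highest and lowest change in isotype against sham and under each antibody against isotype, the 4 with the smallest p relative to the family, those with the highest 4 and lowest 2 levels per kb, and a list by role. After the data were seen, 3 choices were made: the transcript for length, the looser tract definition in place of the stricter one tried first, and the windows printed. The transcript came from GENCODE release 21 for mouse. Protein-coding transcripts came first, then the best rank as principal transcript, then best support, then shortest. That order stood in place of longest and changed the members named by level per kb. Rpl23 is named because few members passed that test. Some members and related genes are not reported here by name. Alternatives were other scalings, filters, DESeq2 1.42.0, limma-voom (limma 3.58.1), only the compared libraries, and left-out kidneys.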

Additional observations from a re-analysis of the deposited data

How the results depend on the processing

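No paired analysis was possible because no replicate number occurs in 2 groups. Of 1518 values under alternatives, 1363 kept their call and direction or, for counts and medians, moved little. Another 55 lost their call, 35 gained one, 11 values of single genes changed sign and 54 moved further. A median that moved by less than the spread between replicates counted as moving little, even if its sign changed. Thus, without kidney 4, the median against isotype went from -0.14 to 0.09 under anti-G-CSFR and to 0.07 under anti-C5. Part of the agreement was fixed in advance. The fit without the filter equalled the main one, and leaving out a kidney outside the compared groups bore only on scaling and shared spread. In isotype against sham, leaving out 1 kidney at a time gave 59 to 74 members higher, and 3638 to 4310 of 13124 genes. With kidneys 1 and 4 left out, an alternative chosen after seeing the data, 33 were higher, the median was 0.39, and Rpl35a (-0.29) and Rps15 (-0.020) turned negative. Leaving out 1 kidney took Rpl35a from -0.18 to 0.35.

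In anti-G-CSFR against isotype, leaving out 1 kidney gave 0 to 8 members higher and 0 to 9 lower. Of all 13124 genes, 3629 to 4385 were then higher and 3583 to 4327 lower. Library totals gave 27 lower, limma-voom 2, the 6 compared libraries 2, and leaving out kidneys 9 and 11 gave 1. In the same order, 5554, 4201, 3946 and 4104 of all genes were lower. Without kidneys 1 and 4, 7 members were higher and 0 lower, with 4305 and 4224 of all genes. With library totals Rps15 had -0.048 and Rpl41 -0.051, against positive values with TMM.

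In anti-C5 against isotype, leaving out 1 kidney gave 0 to 7 members higher and 1 to 7 lower. Of all 13124 genes, 3443 to 4302 were then higher and 3156 to 4081 lower. Library totals gave 23 lower, and the 6 compared libraries 0, with 5111 and 3158 of all genes lower. Without kidneys 1 and 4, 6 members were higher and 0 lower, with 4225 and 3920 of all genes. With library totals Rps15 had -0.024, Rps21 -0.027 and Rpl41 -0.052. Leaving out 1 kidney took Rps21 from -0.031 to 0.55 and Rpl41 from -0.024 to 0.44, and Rpl41 had -0.01 without isotype kidney 5.

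Against sham, 21 members were higher under anti-G-CSFR with the 6 compared libraries, and 49 under anti-C5 with DESeq2. These were among 41 of 13040 and 70 of 1417 genes called higher. Relative to the family, isotype against sham gave 1 to 2 members higher and 0 to 2 lower when 1 kidney was left out, and 2 lower without kidneys 9 and 11. Against isotype, 0 to 2 members were higher than the family under each antibody, and 0 to 1 lower under anti-C5. The causes of these changes were not tested. Depth left no member at 0 in any library, and each group held 3 kidneys.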
